A study of Homo sapiens with 16 samples.

Results

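The genes described here are the insulin-like growth factor (IGF) binding proteins IGFBP1, IGFBP2, IGFBP3, IGFBP4, IGFBP6 and IGFBP7 and the receptors IGF1R, IGF2R and INSR. They were taken by symbol from the count files, 9 of the 26485 genes listed. The family was chosen with earlier results of these data known, and which values chose it is not recorded. The lower IGFBP1 footprint levels of knockdown cells against control cells may be among them. That difference is therefore described here and given no p-value. No threshold on a value decided which of its genes were taken. The data came from MDA-MB-231, an established human triple-negative breast cancer line. Its cells carried CRISPR interference (CRISPRi, a guide RNA that brings a repressor to a gene) and an expression construct. The control cells had the guide against eGFP and the control construct, and the construct cells had the eGFP guide and the construct for tRNAIleUAU. The knockdown cells had the guide against tRNA-Ile-GAU and the control construct, and the double modulation cells had the tRNA-Ile-GAU guide and the tRNAIleUAU construct. Each condition was measured by ribosome-protected fragments (footprints, the stretches of RNA that ribosomes shield) and by total RNA, with 2 libraries for each, 16 in all. Within each arm the guide, the tRNA it targets and the cells that received it coincide and cannot be told apart. Nothing in the labels says that replicates were separate cultures or how many clones a line holds, so p-values measure the spread between these libraries, which may be technical.

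IGF1 and IGF2 are secreted growth factors that signal through IGF1R, a receptor tyrosine kinase, and through the related insulin receptor INSR. IGF2R, the cation-independent mannose 6-phosphate receptor, takes IGF2 up for degradation and carries lysosomal enzymes. The binding proteins are secreted and hold IGFs away from the receptors or deliver them, and several also act on cells without IGF. IGFBP1 is best known as a liver and decidual protein, IGFBP3 is the main carrier in blood, and IGFBP7 binds IGFs weakly.

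Reads counted on genes came to 358340 to 938909 in a footprint library and to 2512247 to 5446599 in a total RNA library. Depth moved with the guide in footprints, at 358340 to 607919 counts with the eGFP guide and 639320 to 938909 with the tRNA-Ile-GAU guide. Levels are given as CPM, the count of a gene scaled to the same total on genes in each library. They are compared within a gene only, because they were not divided by gene length. The spread between replicates (biological coefficient of variation) was 6.71% in footprints and 14.3% in total RNA. VIM, the intermediate filament vimentin of mesenchymal-like cells, had 4606 to 12391 footprint counts per library. The estrogen receptor ESR1, absent in triple-negative lines, had 0 footprint counts and 0 to 1 RNA counts. Other genes of the luminal epithelial list were counted. The keratins KRT19, KRT18 and KRT8 had 194 to 526, 125 to 287 and 72 to 183 footprint counts. ERBB2 had 15 to 29, EPCAM 4 to 20 and GATA3 3 to 8, while PGR, CDH1 and FOXA1 had 0 to 2, 0 to 1 and 0 to 2. CDH5, CD3E, ITGAM and DCN, which define endothelial, immune and fibroblast cells, were at 0 in all 16 libraries. Other markers of these lists were counted, among them the macrophage-associated CD68 (56 to 161 footprint counts), PECAM1 and KDR of endothelium (15 to 37 and 9 to 31 RNA counts) and COL1A1 of fibroblasts (7 to 55 RNA counts). In footprints the summed immune markers were at 125 to 172 CPM with the eGFP guide and 130 to 171 with the tRNA-Ile-GAU guide, the fibroblast and pericyte markers at 13.2 to 27.9 and 21.7 to 27.7, and the endothelial markers at 2.79 to 9.90 and 9.38 to 12.1. Their part in the results was not tested. Replicate 1 of the double modulation total RNA stood apart, and the IGFBP4 and IGFBP6 results that rest on it are given with and without it. Of the 9 genes, 8 passed the filter on low counts in both assays, and IGFBP2 passed in neither.

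**Figure D1:**
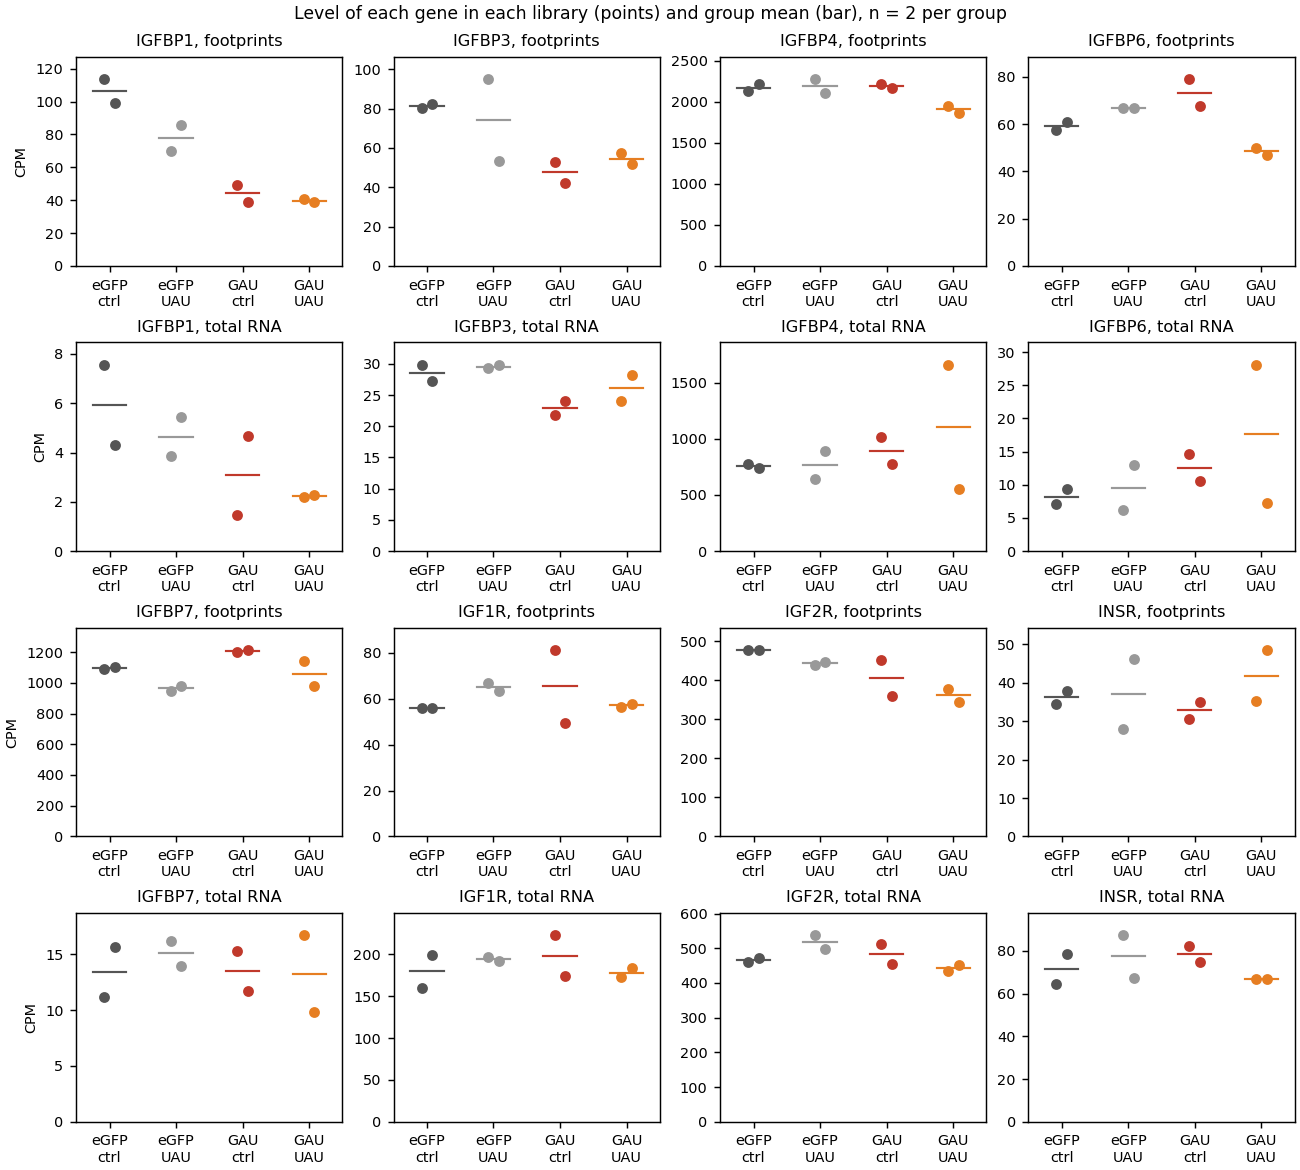
Level of 8 of the genes in each library, in CPM (the count of a gene on a common library scale), with footprints above total RNA for each gene. Points are single libraries, bars are means of 2 libraries, and each panel starts at 0. IGFBP1 footprints lie between 38.7 and 49.5 CPM in the 4 libraries with the tRNA-Ile-GAU guide and between 69.8 and 114 CPM in the other 4.

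IGFBP1 had the largest difference between guides of the 8 genes in footprints. Its footprints were at 114 and 99.0 CPM in control cells, 69.8 and 85.7 in construct cells, 49.5 and 38.7 in knockdown cells and 40.5 and 39.1 in double modulation cells. All 4 libraries with the tRNA-Ile-GAU guide were below all 4 with the eGFP guide. IGFBP1 was the only one of the 8 tested genes with that separation downwards, which 3.94% of all tested genes showed in footprints, and 0 of the 8 were separated upwards (3.28% of all genes). The libraries compared include the knockdown and control libraries, whose values may have chosen the family. The IGFBP1 separation is therefore a description and no test. These values rest on 25 to 69 IGFBP1 counts per library.

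Against control cells, mean IGFBP1 footprints were 2.41-fold lower in the knockdown (44.1 ± 7.64 against 106 ± 10.2 CPM, SD, n = 2 each). The log2 fold change was -1.28 ± 0.22 (SE, from the fit over all genes), and it lay between -1.47 and -1.10 when any 1 of the 4 libraries was left out. In the double modulation they were 2.67-fold lower than in control cells (39.8 ± 0.968 CPM, log2 -1.43 ± 0.23). Both comparisons use the same 2 control libraries. As the family was chosen by the first of them, no test of IGFBP1 is read from either. Of all 8143 tested genes, 1.11% passed an adjusted p of 0.05 for the knockdown (0.651% downwards) and 1.94% for the double modulation (1.4% downwards), by edgeR's quasi-likelihood test. None of the 7 other tested members did in either comparison. In bulk RNA, fewer cells with the transcript and less of it per cell cannot be told apart.

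The guide could also be compared within cells that carry the tRNAIleUAU construct, which shares no library with the comparison of knockdown and control. There IGFBP1 footprints were 1.95-fold lower with the tRNA-Ile-GAU guide (39.8 ± 0.968 against 77.7 ± 11.3 CPM, n = 2 each). The log2 fold change was -1.0 ± 0.26 (adjusted p = 0.0242, edgeR's quasi-likelihood test), and IGFBP1 was the 1 gene of 8 that passed, where 0.896% of all genes did (0.7% downwards). Of the 371 tested genes of chromosome 7, where IGFBP1 lies, 27 were called lower. Whether these libraries took part in the choice of the family is not recorded either. The IGFBP1 call is therefore not shown to be independent of that choice. The call did not survive the loss of any library: the adjusted p was 0.0587 without construct replicate 1, 0.563 without construct replicate 2, 0.13 without double modulation replicate 1 and 0.0765 without double modulation replicate 2, at log2 fold changes of -1.11 to -0.82. DESeq2 without independent filtering gave an adjusted p of 0.693, and counts thinned to the depth of the shallowest library gave 0.0965.

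No difference in IGFBP1 footprints with the tRNAIleUAU construct passed the test. With the eGFP guide the construct libraries lay below both control libraries, at a log2 fold change of -0.43 ± 0.22 (adjusted p = 0.96, edgeR). With the tRNA-Ile-GAU guide the ranges overlapped, and the fold change was -0.15 ± 0.26 (adjusted p = 0.954, edgeR). The difference between the guide effects with and without the construct (interaction) was 0.28 ± 0.34 (adjusted p = 0.995, edgeR).

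IGFBP1 total RNA was scarce, with 4 to 21 counts per library. It was at 7.56 and 4.32 CPM in control cells, 3.86 and 5.43 in construct cells, 1.46 and 4.68 in knockdown cells and 2.20 and 2.27 in double modulation cells. The means were lower with the tRNA-Ile-GAU guide in both backgrounds, but 1 knockdown library lay among the eGFP libraries. The log2 fold change was -0.82 ± 0.52 for the knockdown against control (adjusted p = 0.875) and -1.09 ± 0.53 between the guides in construct cells (adjusted p = 0.66, edgeR's quasi-likelihood test for both). The first was -0.32 without knockdown replicate 1 and -1.97 without knockdown replicate 2. For the double modulation against control it was -1.39 ± 0.53 (adjusted p = 0.565, edgeR). The change of footprints relative to RNA (translational efficiency) between the guides was -0.18 ± 0.42 (adjusted p = 0.953, edgeR).

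As IGFBP1 is known as a liver protein, hepatocyte markers are given beside it. Summed CPM of the 4 hepatocyte markers was 18.9 to 42.9 in footprints with the eGFP guide and 27.8 to 41.5 with the tRNA-Ile-GAU guide, ranges that overlapped. In total RNA it was 1.55 to 3.18 and 3.78 to 7.34, without overlap and higher with the tRNA-Ile-GAU guide. Of single genes tested in total RNA, 3.37% were separated in that direction. These sums mainly follow 1 gene, SERPINA1, which had 180 counts over the 8 footprint libraries and 107 over the 8 total RNA libraries. APOA1 had 0 and 9 counts and TTR 1 and 0. ALB was at 0 in all footprint libraries and at 0 to 1 counts in total RNA. What part these markers have in the IGFBP1 values was not tested. After thinning to the shallowest library, the IGFBP1 footprint difference between knockdown and control was -1.23 on the log2 scale.

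IGFBP3 lies next to IGFBP1. On GRCh38.p14 IGFBP1 is at chromosome 7, 45888488 to 45893660, and IGFBP3 at 45912245 to 45921272, with 18584 bases between them. IGFBP3 footprints were at 80.6 and 82.5 CPM in control cells, 94.9 and 53.1 in construct cells, 53.0 and 42.3 in knockdown cells and 57.5 and 51.6 in double modulation cells. The knockdown libraries were below both control libraries, but construct replicate 2 lay among the libraries with the tRNA-Ile-GAU guide. The log2 fold change of the knockdown against control was -0.78 ± 0.23 (adjusted p = 0.0697) and that between the guides in construct cells -0.35 ± 0.25 (adjusted p = 0.715, edgeR's quasi-likelihood test for both). Left-out libraries moved the second between -0.80 and 0.04.

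IGFBP3 total RNA was at 29.9 and 27.3 CPM in control cells, 29.4 and 29.7 in construct cells, 21.9 and 24.1 in knockdown cells and 24.1 and 28.3 in double modulation cells. Both knockdown libraries were below all 4 eGFP libraries, and 1 double modulation library was among them. The log2 fold changes between the guides were -0.30 ± 0.18 with the control construct and -0.20 ± 0.18 with the tRNAIleUAU construct (adjusted p = 0.873 and 0.783, edgeR). The IGFBP3 values in the double modulation against control were -0.58 ± 0.23 in footprints (adjusted p = 0.219, edgeR) and -0.13 ± 0.18 in total RNA (adjusted p = 0.91, edgeR).

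The lower IGFBP1 and IGFBP3 values stood within a wider shift of chromosome 7 genes. In footprints, 326 of 371 tested genes of chromosome 7 had a fold change below 0 in the knockdown against control, with a median of -0.39, against 0.02 for the 7772 other genes. Between the guides in construct cells it was 328 of 371, with a median of -0.38. Of these 371 genes, 126 had all 4 tRNA-Ile-GAU guide libraries below all 4 eGFP libraries. In the knockdown against control 32 of the 371 were called lower, and between the guides in construct cells 27 were (edgeR's quasi-likelihood test). In total RNA, 514 of 553 and 472 of 553 genes of chromosome 7 were below 0 in the same comparisons, with medians of -0.39 and -0.33. What part the shift along the chromosome has in the IGFBP1 and IGFBP3 values was not tested.

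Within that shift IGFBP1 was among the lowest and IGFBP3 was not. Ranked from the lowest fold change, IGFBP1 had rank 5 of the 371 chromosome 7 genes in footprints of the knockdown against control and rank 24 between the guides in construct cells. The first of these ranks only describes a difference that may have chosen the family. IGFBP3 had ranks 52 and 206. In total RNA, where IGFBP1 rests on few counts, its ranks were 41 and 13 of 553, and those of IGFBP3 were 363 and 388.

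Around the pair, 15 other tested genes lay within 2 Mb in footprints. All 15 were below 0 in the knockdown against control, with a median of -0.44, and 14 of 15 between the guides in construct cells, with a median of -0.46. TBRG4, a mitochondrial RNA-binding protein, passed in the first (-0.73 ± 0.17, adjusted p = 0.0051, edgeR). The cyclophilin PPIA and the actin-binding adaptor DBNL passed in the second (-0.67 ± 0.15 and -0.78 ± 0.19, adjusted p = 0.0029 and 0.0166, edgeR). The DNA polymerase gene POLM had the lowest value, -1.46 ± 0.47, and did not pass (adjusted p = 0.123, edgeR). In total RNA 20 of 20 neighbours were below 0 in the first comparison, with a median of -0.42, and 16 of 20 in the second, with a median of -0.19, and none was past the threshold.

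**Figure D2:**
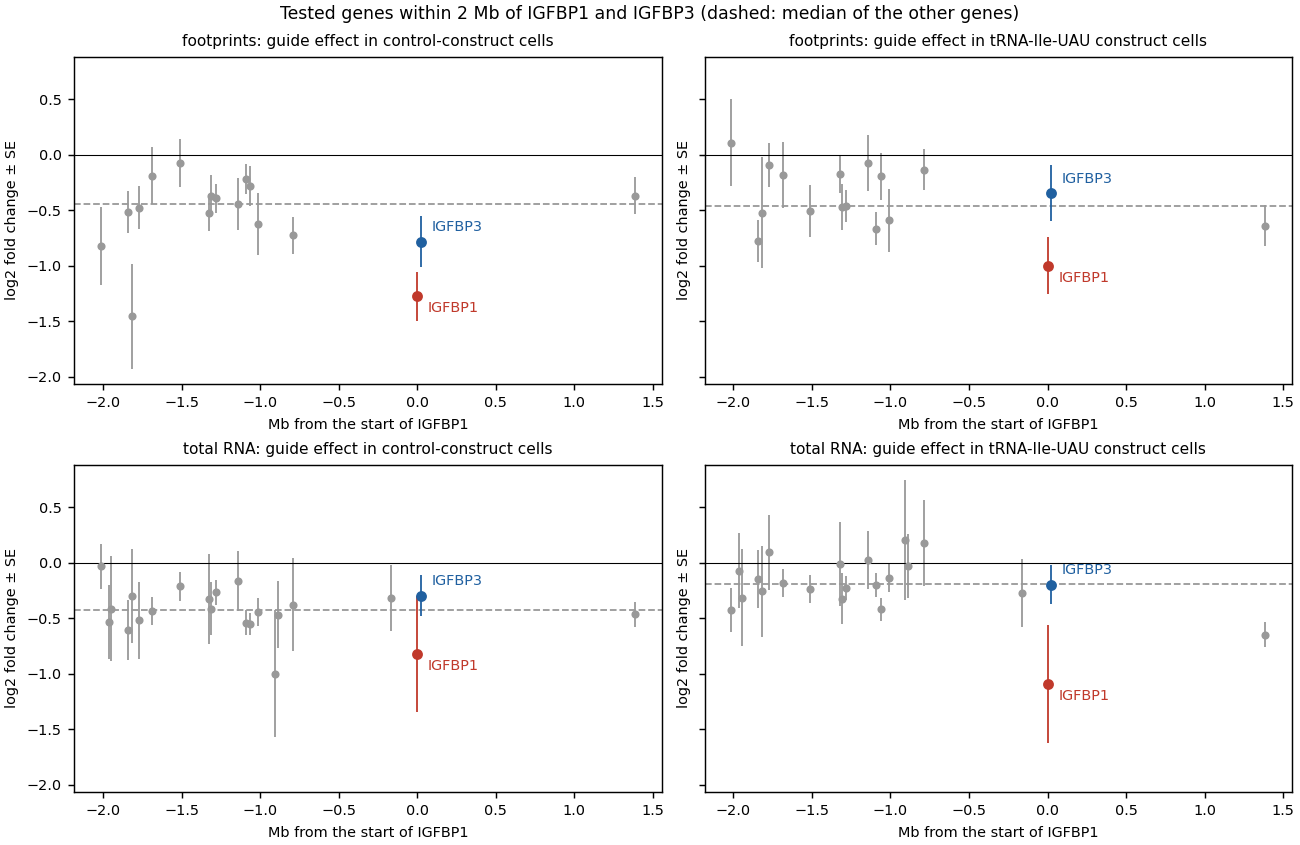
Log2 fold change between the tRNA-Ile-GAU and the eGFP guide (± SE) of tested genes within 2 Mb of IGFBP1 and IGFBP3, by distance from the start of IGFBP1, for footprints (top) and total RNA (bottom), with the control construct (left) and the tRNAIleUAU construct (right). The dashed line is the median of the other genes, -0.44, -0.46, -0.42 and -0.19 in that order, and IGFBP1 lies below it in all 4 panels.

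IGFBP4 and IGFBP6 are carriers of a different kind. IGFBP4 mostly inhibits IGF action and is cut by the protease PAPPA, and IGFBP6 prefers IGF2. They lie on different chromosomes, IGFBP4 at chromosome 17, 40443450 to 40457725, and IGFBP6 at chromosome 12, 53097667 to 53102340 (GRCh38.p14). The 100 bases before their RefSeq start sites are shown, with those of IGFBP3. Capitals mark TATAAA and GGGCGG on either strand, and none of these matches overlap. IGFBP3 is chr7:45921273-45921372 (minus strand), IGFBP4 chr17:40443350-40443449 (plus strand) and IGFBP6 chr12:53097567-53097666 (plus strand), each printed 5′ to 3′ along the gene.
IGFBP3: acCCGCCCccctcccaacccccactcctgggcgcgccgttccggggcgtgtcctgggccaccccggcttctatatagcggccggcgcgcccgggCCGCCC
IGFBP4: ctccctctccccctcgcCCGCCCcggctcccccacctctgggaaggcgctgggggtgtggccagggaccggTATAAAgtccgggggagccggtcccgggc
IGFBP6: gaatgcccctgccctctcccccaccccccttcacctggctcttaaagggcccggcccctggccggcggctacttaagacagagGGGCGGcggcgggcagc
TATAAA was found 1 time for IGFBP4 and 0 times for the others, and 5.34% of 27305 RefSeq promoters hold it in the same 100 bases. GGGCGG was found 2 times for IGFBP3 and 1 time each for IGFBP4 and IGFBP6, and 31.3% of the promoters hold it. A match to these letters is a description and not a bound site.

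IGFBP4 footprints differed little between the conditions. They were at 2129 and 2223 CPM in control cells, 2274 and 2109 in construct cells, 2219 and 2172 in knockdown cells and 1957 and 1868 in double modulation cells. The double modulation libraries were the lowest of the 8. The log2 fold change of the double modulation was -0.20 ± 0.10 against each of the other conditions, with an adjusted p of 0.49 against construct cells, 0.57 against knockdown cells and 0.401 against control cells (edgeR's quasi-likelihood test). The knockdown alone differed from control by 0.00 ± 0.10.

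IGFBP4 total RNA was at 774 and 737 CPM in control cells, 643 and 892 in construct cells, 1013 and 777 in knockdown cells and 1659.6 and 550.5 in double modulation cells. The double modulation held both the highest and the lowest library. With both of them the difference between the guides in construct cells was 0.49 ± 0.38 (adjusted p = 0.739, edgeR). Without replicate 2 it was 1.05 and without replicate 1 it was -0.47, so the direction rested on 1 library. Against knockdown cells the double modulation was at 0.84 without replicate 2 and at -0.68 without replicate 1. Each of these fits leaves 1 double modulation library, so the spread between its replicates is not measured.

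IGFBP6 total RNA was highest in the same library as IGFBP4. It was at 7.16 and 9.31 CPM in control cells, 6.18 and 12.9 in construct cells, 14.6 and 10.5 in knockdown cells and 28.1 and 7.32 in double modulation cells, from 16 to 153 counts. Replicate 1 of the double modulation was the highest of the 8 libraries, and replicate 2 lay among the eGFP libraries. The double modulation differed from control by 1.10 ± 0.56 (adjusted p = 0.723, edgeR), from 1.71 without replicate 2 to -0.16 without replicate 1.

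Ribosomal protein genes were high in the same library. Their summed CPM over 75 genes, a list taken after the values were seen, was 22079 in replicate 1 of the double modulation total RNA and 13764 in replicate 2, and 12243 to 16497 in the other 6 total RNA libraries. CTSD, the lysosomal protease cathepsin D, was at 1434 and 445 CPM in the same 2 libraries and at 693 to 1189 in the other 6. IGFBP3 was at 24.1 and 28.3 CPM there. The part of this library difference in the IGFBP4 and IGFBP6 values was not tested beyond leaving the libraries out.

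**Figure D3:**
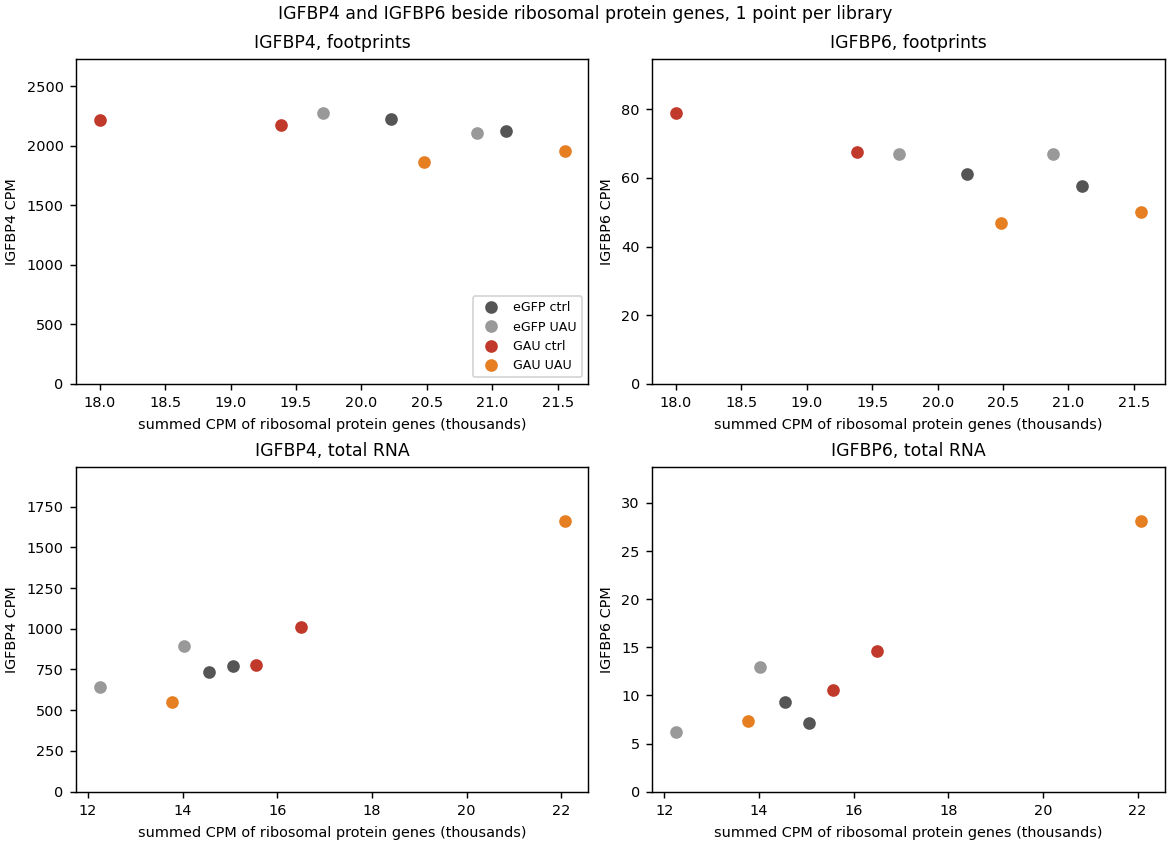
IGFBP4 (left) and IGFBP6 (right) in CPM against the summed CPM of 75 ribosomal protein genes, for footprints (top) and total RNA (bottom), 1 point per library and colours for the 4 conditions. In total RNA 1 double modulation library lies alone at the upper right, at 22079 summed CPM with 1659.6 CPM of IGFBP4 and 28.1 of IGFBP6, while no footprint library stands out in that way.

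IGFBP6 footprints followed another order. They were at 57.6 and 61.1 CPM in control cells, 67.0 and 66.9 in construct cells, 78.9 and 67.7 in knockdown cells and 50.1 and 46.9 in double modulation cells. The knockdown libraries were the highest and the double modulation libraries the lowest. The construct in knockdown cells had a log2 fold change of -0.59 ± 0.22 (adjusted p = 0.321), and in eGFP cells 0.17 ± 0.26 (adjusted p = 1.00, edgeR's quasi-likelihood test for both). The interaction was -0.76 ± 0.34 (adjusted p = 0.82, edgeR). The guide gave 0.29 ± 0.23 with the control construct and -0.47 ± 0.26 with the tRNAIleUAU construct (adjusted p = 0.741 and 0.566, edgeR). None of these passed after adjustment over all genes.

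IGFBP7, also called angiomodulin, is a low-affinity IGF binder of the extracellular matrix, at chromosome 4, 57030773 to 57110385. Its footprints were at 1087 and 1106 CPM in control cells, 946 and 981 in construct cells, 1198 and 1213 in knockdown cells and 1139.6 and 976 in double modulation cells. Knockdown libraries were the highest, and construct libraries were below control libraries. The guide effect was 0.13 ± 0.11 in both backgrounds (adjusted p = 0.78 with the control construct and 0.782 with the tRNAIleUAU construct). The construct effect was -0.19 ± 0.11 with the eGFP guide and -0.19 ± 0.10 with the tRNA-Ile-GAU guide (adjusted p = 0.987 and 0.643, edgeR's quasi-likelihood test).

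IGFBP7 total RNA was low against its footprints, at 11.1 and 15.6 CPM in control cells, 16.2 and 14.0 in construct cells, 15.3 and 11.7 in knockdown cells and 16.7 and 9.84 in double modulation cells. The ranges of all 4 conditions overlapped. Its fold changes in RNA lay between -0.19 and 0.17 over the 6 RNA comparisons, with errors of 0.30 to 0.44.

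IGFBP2, a carrier that is abundant in fetal tissue and in many tumours, at chromosome 2, 216632828 to 216664436, was barely counted. It had 5 footprint counts over the 8 libraries, with no row in 4 of them, and 1 count over the 8 total RNA libraries. A count of 0 allows up to 3 counts, which is 3.20 to 8.37 CPM in the footprint libraries and 0.551 to 1.19 CPM in the total RNA libraries, counting error only. IGFBP5, its neighbour on chromosome 2, had 1 count in each assay. Counts of the ligands were also low, with 7 footprint and 18 RNA counts for IGF1 over 8 libraries each, and 3 footprint and 0 RNA counts for IGF2.

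IGF1R, at chromosome 15, 98648539 to 98964530, is the receptor through which both IGFs signal. Its footprints were at 55.9 and 56.1 CPM in control cells, 67.0 and 63.4 in construct cells, 81.3 and 49.5 in knockdown cells and 56.4 and 57.9 in double modulation cells. The knockdown held the highest and the lowest library. The guide effect was 0.22 ± 0.24 with the control construct and -0.19 ± 0.25 with the tRNAIleUAU construct (adjusted p = 0.842 and 0.879, edgeR's quasi-likelihood test). Leaving out 1 knockdown library or the other put the first at -0.19 or 0.53.

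IGF1R total RNA was at 160.0 and 199 CPM in control cells, 196 and 192 in construct cells, 223 and 174 in knockdown cells and 173 and 183 in double modulation cells. All conditions overlapped with control. The guide effects were 0.15 ± 0.15 and -0.14 ± 0.15 (adjusted p = 0.975 and 0.816, edgeR).

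IGF2R, at chromosome 6, 159969082 to 160111504, had the lowest footprints in the double modulation. They were at 477 and 477 CPM in control cells, 438 and 447 in construct cells, 452 and 360.1 in knockdown cells and 378 and 344 in double modulation cells. Double modulation libraries were below those of control and construct cells, and overlapped with 1 knockdown library. The guide effect was -0.24 ± 0.12 with the control construct and -0.30 ± 0.13 with the tRNAIleUAU construct (adjusted p = 0.508 and 0.39). The double modulation differed from control by -0.41 ± 0.13 (adjusted p = 0.0588, edgeR's quasi-likelihood test for all 3). This value had an adjusted p of 0.0427 when chromosome 7 genes were left out of the scaling. Over all 8 other settings its adjusted p ran from 0.0267 to 0.638 (edgeR or DESeq2). With any 1 of the 4 libraries left out, the fold change lay between -0.47 and -0.36.

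IGF2R total RNA was at 461 and 471 CPM in control cells, 537 and 497 in construct cells, 514 and 454 in knockdown cells and 435 and 450.3 in double modulation cells. The construct libraries were above control, and the double modulation libraries were the lowest. The guide effect in construct cells was -0.24 ± 0.11 (adjusted p = 0.614), and the double modulation differed from control by -0.08 ± 0.11 (adjusted p = 0.914, edgeR). IGF2R translational efficiency between the guides differed by -0.17 ± 0.13 (adjusted p = 0.865, edgeR).

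INSR, at chromosome 19, 7112265 to 7294414, had 10 to 33 footprint counts per library. Its footprints were at 34.5 and 38.0 CPM in control cells, 27.9 and 46.3 in construct cells, 30.6 and 35.0 in knockdown cells and 35.1 and 48.5 in double modulation cells. The construct libraries spanned the range of control and knockdown libraries. The guide effects were -0.15 ± 0.31 and 0.05 ± 0.31 (adjusted p = 0.921 and 0.984, edgeR). In total RNA INSR was at 64.5 and 78.8, 87.3 and 67.5, 82.4 and 74.7, and 66.8 and 66.9 CPM in the same order of conditions. The guide effects in total RNA were 0.13 ± 0.16 and -0.22 ± 0.16 (adjusted p = 0.985 and 0.731, edgeR).

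Counted over the 8 tested genes, no gene passed in footprints for the construct with either guide or for the interaction, where 0.0246%, 0.442% and 0.0614% of all genes passed. At an unadjusted p under 0.05 these held 0, 2 (IGFBP4 and IGFBP6) and 1 (IGFBP6) of the 8. In total RNA 0 of 8 passed in each of the 6 comparisons. The share of all genes was 0.0256% for the knockdown against control, 0.0683% for the guides in construct cells and 0.0683% for the double modulation against control, and 0.00% for the other 3. At an unadjusted p under 0.05, the total RNA comparisons held IGF2R for the guides in construct cells and IGFBP1 for the double modulation against control, and none of the 8 in the other 4. Both counts are from edgeR's quasi-likelihood test. DESeq2 also called 0 of the 8 in these 9 comparisons, but in some its independent filtering gave some genes no adjusted p. In total RNA, 0 of the 8 genes had all tRNA-Ile-GAU guide libraries below or all above the eGFP libraries, as 5.33% and 3.37% of all genes did.

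The 5 tested binding proteins and the 3 receptors lay on opposite sides of the median gene in how many footprints they had for their RNA. Over all libraries of an assay, mean footprint CPM divided by mean total RNA CPM had a median of 1.10 over the 7577 genes with a mean count of at least 10 in each assay. The ratio was 78.2 for IGFBP7, 16.8 for IGFBP1, 5.16 for IGFBP6, 2.41 for IGFBP4 and 2.40 for IGFBP3. It was 0.884 for IGF2R, 0.503 for INSR and 0.325 for IGF1R. All 5 tested binding proteins were thus above the median gene and all 3 receptors below it. IGFBPL1, listed with other IGF carriers and not one of the members, had fewer footprints than RNA, at means of 25.6 and 30.3 CPM.

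IGFBP7 had rank 9 of the 7577 genes, and the 8 genes above it were all histone genes. Its ratio was 81.9 in control, 63.8 in construct, 89.2 in knockdown and 79.7 in double modulation cells. IGFBP1 had rank 67, with 17.9, 16.7, 14.4 and 17.8 in the same order. Single libraries give IGFBP1 a wider range: its lowest footprint library over its highest RNA library was 5.11, and its highest over its lowest was 77.8. The same extremes for IGFBP7 were 56.6 and 123, and for IGF1R 0.222 and 0.508, so these 3 did not overlap except for IGFBP1 with IGFBP7.

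IGFBP6 had a ratio of 7.20 in control cells and 2.74 in the double modulation, and IGFBP4 2.88 and 1.73. Without total RNA replicate 1 of the double modulation these double modulation ratios were 6.63 for IGFBP6 and 3.47 for IGFBP4, and without replicate 2 they were 1.73 and 1.15. The IGFBP4 ratio thus lay above or below that of control cells with the library left out. For IGFBP7 the ratio was 108 without replicate 1 and 63.3 without replicate 2. IGF1R was between 0.312 and 0.336 in the 4 conditions. The labels give polyA RNA as the molecule of the footprint samples and total RNA as that of the others. Footprints come from coding sequence and RNA reads from whole transcripts, so long untranslated regions lower a gene's ratio, and transcript lengths were not used here.

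**Figure D4:**
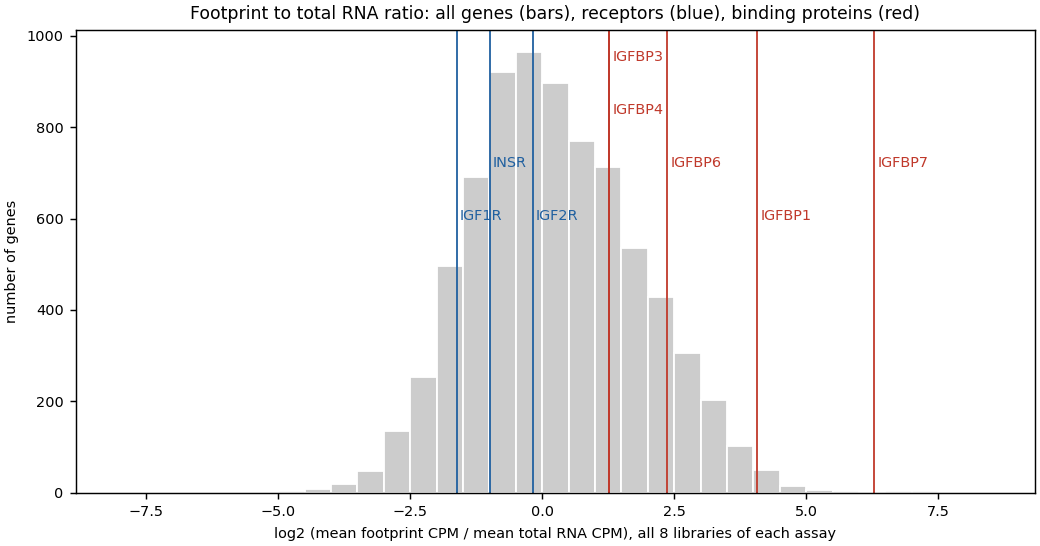
Number of genes by the log2 ratio of mean footprint to mean total RNA CPM, over 7577 genes, with lines for 5 binding proteins (red) and 3 receptors (blue). The receptors lie left of the binding proteins, from a ratio of 0.325 for IGF1R to 78.2 for IGFBP7, and the lines of IGFBP3 and IGFBP4 fall on each other.

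Translational efficiency was tested over both constructs for the guide and over both guides for the construct, in 1 fit of all 16 libraries. With edgeR's quasi-likelihood test 0 of the 8 genes passed in either, as did 0.00% of 8012 genes, and 0 of the 8 had an unadjusted p under 0.05. DESeq2 called 0 as well. The largest differences were those of IGFBP6, -0.79 ± 0.45 for the guide (adjusted p = 0.865) and -0.61 ± 0.45 for the construct (adjusted p = 1.00), and of IGFBP4, -0.46 ± 0.30 for the guide (adjusted p = 0.865, edgeR). Without total RNA replicate 1 of the double modulation, the guide differences were -0.14 for IGFBP6 and 0.01 for IGFBP4, and the IGFBP6 construct difference was -0.01. Without replicate 2, which leaves replicate 1 as the only RNA library of that group, the guide differences were -1.06 and -0.74. IGFBP3 differed by -0.33 ± 0.24 and IGFBP7 by 0.23 ± 0.20 for the guide. The receptors IGF1R and INSR were at 0.02 ± 0.22 and 0.01 ± 0.24.

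Other genes of the IGF system were taken from lists by function. The lists were drawn up with earlier results of these data known, so calls within them are not an independent test. In footprints 3 of 7 genes of the CCN family and other genes with an IGF-binding domain could be tested, and 2 of them fell between the guides in construct cells, where 0.7% of all genes fell. CYR61, a matricellular protein that binds integrins, went from 1624 and 2085 CPM in construct cells to 1342 and 1251 in double modulation cells (-0.53 ± 0.11, adjusted p = 0.000724, edgeR). Its relative CTGF went from 882 and 1155 to 703 and 709 CPM (-0.55 ± 0.11, adjusted p = 0.0011, edgeR). Both calls were lost without construct replicate 2, which leaves 1 library of construct cells. In the knockdown against control, where 0.651% of all genes fell, CYR61 differed by -0.65 ± 0.11 and CTGF by -0.47 ± 0.12 (adjusted p = 8.92e-06 and 0.0163, edgeR). Without control replicate 2 neither passed (adjusted p = 0.0664 and 0.584, edgeR), and CTGF did not pass without knockdown replicate 2 either (adjusted p = 0.339, edgeR). With the tRNA-Ile-GAU guide, CYR61 rose with the construct, from 1011 and 851 CPM (0.47 ± 0.11, adjusted p = 0.0078, edgeR), a call lost without knockdown replicate 2. CYR61 total RNA was at 352 and 424 CPM in control cells and 305 and 290 in the knockdown. It was at 495 and 701 CPM in construct cells and 436 and 398 in the double modulation. CTGF total RNA was at 135 and 147, 116 and 113, 149.9 and 240, and 174 and 139 CPM in the same order.

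Of 8 proteases that cut binding proteins and their inhibitors, 5 could be tested in footprints. CTSD was the 1 gene that passed, for the guides in construct cells and for the double modulation against control, where 0.896% and 1.94% of all genes passed. It was at 4892 and 4762 CPM in construct cells and 3800.2 and 3207 in double modulation cells (-0.47 ± 0.10, adjusted p = 0.0011, edgeR). Leaving out construct replicate 1, construct replicate 2 or double modulation replicate 2 ended the call, with an adjusted p of up to 0.0718. Against control, at 4596 and 4726 CPM, it fell by 0.43 ± 0.10 (adjusted p = 0.00318, edgeR), a call that ended without control replicate 2 or double modulation replicate 2 (adjusted p of up to 0.137).

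Of 23 genes of signalling below the receptors, 18 could be tested in footprints, and 0 passed between the guides with either construct. IRS1, the adaptor that links IGF1R and INSR to PI3 kinase, passed for the double modulation against control, as 1.94% of all genes did. Its footprints were at 88.8 and 125 CPM in control cells and 67.1 and 62.6 in double modulation cells (-0.73 ± 0.21, adjusted p = 0.0339, edgeR). The call ended without control replicate 2 and without either double modulation library, with an adjusted p of up to 0.646. GRB10, an adaptor that inhibits IGF1R and INSR and lies on chromosome 7, at 50590068 to 50793453, is named after its values were seen. GRB10 footprints were at 58.6 to 74.3 CPM in the eGFP libraries and 31.3 to 44.7 in the tRNA-Ile-GAU guide libraries, without overlap. Of all tested genes 3.94% had this separation downwards in footprints, and 126 of the 371 genes of chromosome 7 had it. The footprint fold changes were -0.86 ± 0.25 with the control construct and -0.69 ± 0.28 with the tRNAIleUAU construct (adjusted p = 0.069 and 0.318, edgeR). GRB10 total RNA was at 163 to 181 and 125 to 155 CPM, also without overlap. In total RNA 5.33% of all tested genes and 250 of 553 of chromosome 7 were separated downwards.

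None of the 7 tested genes of mannose 6-phosphate sorting, to which IGF2R belongs, nor the 2 tested IGF2 mRNA-binding proteins, passed in any footprint comparison. In total RNA none of the listed genes in these groups passed. All of these calls are from edgeR's quasi-likelihood test and are adjusted over all genes.

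The genes whose footprints went most like those of IGFBP1 across the 8 footprint libraries were NDUFB2, OGDH, TMEM109, FKBP14 and MAP7D1. Their Pearson correlations of log2 CPM with IGFBP1 were 0.991, 0.969, 0.966, 0.962 and 0.961, the highest of 8142 genes. NDUFB2, OGDH and FKBP14 lie on chromosome 7, TMEM109 on chromosome 11 and MAP7D1 on chromosome 1. In total RNA the 5 were ANKRD49, NAPEPLD, LSG1, DHRS7 and CD47, at 0.965 to 0.931 among 11719 genes, with NAPEPLD on chromosome 7. No gene was in both lists. The libraries of a pair of genes are the same, including their depth and the guide, and no test was run on these correlations.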

How the data were processed

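Per the labels, MDA-MB-231 cells were lysed with cycloheximide, ribosomes were pelleted through sucrose, and RNA was extracted with Trizol. The deposited values are unnormalized counts, 1 per gene symbol and library. The submitters' processing notes name cutadapt 1.17, STAR 2.5.2a, HTSeq and build hg38, and the settings and the annotation are not given in the sources used here. Of the reads in the files, 97.0 to 98.8% of footprints and 97.2 to 98.1% of total RNA were counted as not uniquely aligned and stayed out of all totals, as did the other rows that name no gene. A missing footprint row was taken as 0.

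CPM is the count over the total on genes. The filterByExpr filter (at least 10 counts by group, 15 in total) left 8143 genes in footprints, 11720 in total RNA and 8012 in both. They were scaled by TMM and tested in edgeR 4.0.16 (R 4.3.3) with the quasi-likelihood test over the 8 libraries of an assay, or 16 for translational efficiency. Benjamini-Hochberg adjustment ran over all genes tested, with a threshold of 0.05. Log2 fold changes carry the model's standard error and CPM the standard deviation. The fits were tested on simulated data.

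The members and the lists were chosen with earlier results of these data known. All 9 members were named, with listed genes that passed, IGF1, IGF2, IGFBP5, genes within 2 Mb of IGFBP1 or IGFBP3 and the 5 genes most correlated with IGFBP1 in each assay. The labels give replicate numbers but no pairing, so no block was used. Alternatives were DESeq2 1.42.0, RLE scaling, library totals, no filter, a replicate block, scaling without chromosome 7, thinning and leaving out each library. Positions and promoters are from RefSeq on GRCh38.p14, where 25320 of 26485 symbols matched. IGFBP1 and IGFBP7 had no promoter entry.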

Additional observations from a re-analysis of the deposited data

How the results depend on the processing

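Of the 8 tested genes, the count past the threshold in footprints was 1, IGFBP1, for the knockdown against control, the guides in construct cells and the double modulation against control, and 0 in the other 11 comparisons. The IGFBP1 difference in the first may have chosen the family, and the double modulation against control shares its control libraries. The counts of both comparisons with control, and their changes, are therefore no test of IGFBP1. For the guides in construct cells, it is not recorded whether the values took part in the choice. Same-numbered libraries of different groups did not deviate together throughout (r of -0.03 to 0.06 for footprints, -0.45 to 0.40 for total RNA). With the replicate block 2 passed for the knockdown against control (IGFBP3 at -0.79, adjusted p = 0.0478, edgeR) and 2 for the double modulation against control (IGF2R at -0.42, adjusted p = 0.0267, edgeR). The block left the member counts of the other comparisons as they were, and with crossed numbers, tried after the data were seen for the guides in construct cells in total RNA, 0 passed. Without chromosome 7 genes in the scaling, 2 passed for the double modulation against control. After thinning, 0 passed for the guides in construct cells. DESeq2 without independent filtering, an alternative chosen after the data were seen, called 0 for the knockdown against control and 0 for the guides in construct cells. DESeq2 with that filtering gave IGFBP1 no adjusted p (unadjusted p = 0.00579 for the guides in construct cells). Without a filter on low counts, 1 gene (IGFBP4) passed in total RNA for the guides in construct cells (adjusted p = 0.00439) and 1 for the double modulation against control (adjusted p = 0.00377).

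Leaving out 1 library at a time gave 0 to 0 for the guides in construct cells in footprints. In total RNA it gave 0 to 3 for those guides, 0 to 2 for the construct in knockdown cells, 0 to 2 for the double modulation against control and 0 to 1 for the interaction. In translational efficiency it gave 0 to 2 for the guide and 0 to 1 for the construct. The footprint to RNA ratios of the double modulation without 1 RNA library were added after the data were seen. A lone library of a group was taken to vary like the other groups. IGFBP4 total RNA of the double modulation against knockdown cells turned to -0.68 without double modulation replicate 1, and was 0.84 without replicate 2. Of 1608 recomputed values for single genes, 1561 kept their side of the threshold and any called direction, 16 gained a call, 30 lost one and 1 reversed, and 111 values without a call changed sign. The cause of these changes was not tested. Low depth limits IGFBP1 total RNA, INSR footprints and IGFBP2 most.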
